A study of Homo sapiens with 6 samples.

Results

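The 56 genes described here drive the cell division cycle, 29 of them acting around the G1/S transition and 27 in G2 and mitosis. They were chosen by name, and no measured value entered the rule, but earlier results of these data were known when they were chosen. All 56 were measured, by 129 of the 54613 probe sets tested, among 19775 named genes. A probe set is a group of short probes that together read a transcript. Each gene was represented by its probe set of highest mean signal over all arrays, and every probe set was examined for CDK1 and H2AX. The cells were SUM-LM1, a lung-metastatic derivative of the human breast cancer line SUM159, kept on plates to which cells do not attach, where they float as spheres, in HuMEC medium that held 0.1% BSA. One group received recombinant human activin B, a dimeric ligand of the TGF-β family, at 50 ng/ml for 6 h, and the other received the vehicle, BSA in PBS, for the same time. Each group held 3 biological replicates of this one line. The titles do not say how the replicates were separated, so p-values measure only the spread between these samples, and the cells were not sorted by cycle phase.

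Entry into the cycle turns on the retinoblastoma proteins. Cyclin D with CDK4 or CDK6, and then cyclin E with CDK2, phosphorylate them, which frees E2F transcription factors to switch on the genes that license origins and copy DNA. Later, the transcription factor FOXM1 and the DREAM and MMB complexes govern the mitotic genes, whose promoters often carry a cell cycle homology region beside CCAAT boxes. TGF-β family ligands are known to arrest many epithelial cells in G1, and the comparison asked where these genes stood after hours of activin B.

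Promoters of 4 members are shown because CDK1 and H2AX had the only called probe sets, RBL1 had the smallest p-value and PLK1 the highest change of the representing probe sets. Each sequence is the 250 bases before an annotated transcription start, 5′ to 3′ on the strand of the gene, from the RefSeq promoter table of GRCh38.p14. The windows are CDK1 at chr10:60778081-60778330, plus strand (the first of its 2 annotated windows), H2AX at chr11:119095466-119095715, minus strand, RBL1 at chr20:37095998-37096247, minus strand, and PLK1 at chr16:23678639-23678888, plus strand. Capitals mark matches to an E2F site (TTTCGCGC or TTTGGCGC), a cell cycle homology region (TTTGAA or TTCGAA) or a CCAAT box (CCAAT), any of which may lie on the opposite strand and then reads as its reverse complement.
CDK1: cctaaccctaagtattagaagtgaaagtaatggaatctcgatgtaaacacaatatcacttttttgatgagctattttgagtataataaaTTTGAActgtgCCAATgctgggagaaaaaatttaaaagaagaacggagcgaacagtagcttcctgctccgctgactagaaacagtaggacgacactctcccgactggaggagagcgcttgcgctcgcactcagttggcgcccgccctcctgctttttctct
H2AX: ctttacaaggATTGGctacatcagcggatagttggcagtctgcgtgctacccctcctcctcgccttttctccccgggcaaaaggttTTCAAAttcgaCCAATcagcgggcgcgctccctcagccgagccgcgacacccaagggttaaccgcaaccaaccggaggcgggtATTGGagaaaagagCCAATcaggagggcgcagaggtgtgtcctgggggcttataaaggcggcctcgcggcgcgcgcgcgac
RBL1: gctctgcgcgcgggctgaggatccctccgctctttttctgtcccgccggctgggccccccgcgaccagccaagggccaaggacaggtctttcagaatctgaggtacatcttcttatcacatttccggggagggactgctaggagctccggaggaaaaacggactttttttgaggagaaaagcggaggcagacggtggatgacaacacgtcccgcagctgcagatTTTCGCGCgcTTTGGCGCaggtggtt
PLK1: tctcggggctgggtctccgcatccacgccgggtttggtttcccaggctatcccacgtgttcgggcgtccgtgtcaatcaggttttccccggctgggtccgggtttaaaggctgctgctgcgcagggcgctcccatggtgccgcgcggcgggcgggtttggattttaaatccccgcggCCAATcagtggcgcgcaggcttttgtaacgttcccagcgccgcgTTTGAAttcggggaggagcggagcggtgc

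RBL1, which encodes the retinoblastoma relative p107, carried both E2F spellings just before its start, with first bases at -26 and -16. Neither of the other motifs lay in its window. PLK1, a kinase of mitotic entry, had a homology region at -29 and a CCAAT box at -73, and the first CDK1 window had them at -161 and -150. An E2F site of CDK1 began 20 bases after that start, outside the printed stretch. The second CDK1 window, not printed, had an E2F site at -128 from its own start. It also had homology regions at -69, -13 and 10 and CCAAT boxes at -78 and -46. H2AX held 4 CCAAT boxes and a homology region on the opposite strand at -164. These matches are descriptions of letters and not of bound sites.

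Windows of 300 bases, from 250 before to 50 after a start, were found for 44 of the 56 members. CCND1, CCND2, CCNE2, CDK2, MCM4, MCM5, AURKA, BIRC5, FOXM1, TPX2, TTK and UBE2C were not among them. Counting a gene once if any of its windows held the motif on either strand, E2F sites lay in 39.1% of 23 G1/S members and in 9.52% of 21 mitotic members, against 1.99% of 15843 protein-coding genes. The 9 G1/S members were CDC25A, CDC6, E2F1, E2F2, MCM2, MCM3, MCM6, MCM7 and RBL1, and the mitotic members were CDK1 and NUSAP1. The cell cycle homology region ran the other way, in 71.4% of mitotic and 17.4% of G1/S members, against 17.5% of protein-coding genes. No searched motif contains another. CCAAT boxes were found in 90.5% of mitotic members, 60.9% of G1/S members and 42.1% of protein-coding genes. Over all 27305 genes of the table the shares were 1.40% for E2F sites, 19.5% for the homology region and 39.7% for CCAAT boxes. A gene with several windows has more chances of a match, and these shares carry no test.

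**Figure D1:**
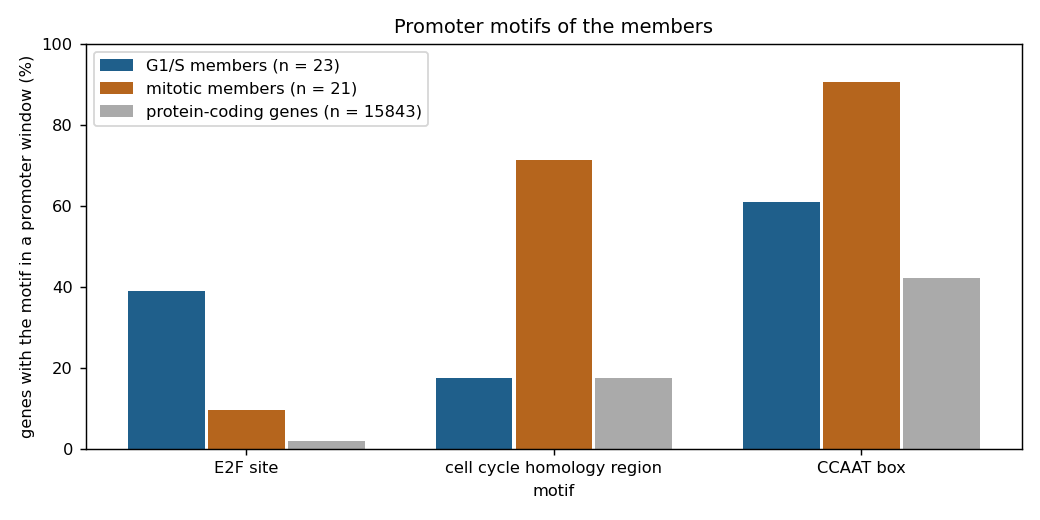
Share of genes, in percent, with each motif in a promoter window, for the G1/S members (23 genes), the mitotic members (21 genes) and 15843 protein-coding genes of the promoter table. E2F sites stood highest in the G1/S members (39.1%) and the homology region in the mitotic members (71.4%).

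The arrays themselves were alike. Their median log2 signals lay between 6.69 and 6.70, and correlations between arrays between 0.9935 and 0.9961. Activin B replicate 3 stood farthest from the rest on the first principal component, at 21.7 against -10.6 to 5.70 for the others. The ligand response was present, since ID3, a target of SMAD signaling that inhibits helix-loop-helix factors, gave 11.69, 11.25 and 11.15 in activin B and 8.81, 8.34 and 8.38 in vehicle (log2 change 2.85, limma adjusted p = 6.81e-08). Of the markers fixed for the breast line, VIM averaged 13.90 in activin B and 13.89 in vehicle. The keratin gene KRT18 averaged 11.99 in activin B and 12.09 in vehicle. By representing set, 8 of 10 markers lay above the median probe set of 6.69, beside 12644 of all 19775 genes. The epithelial marker EPCAM lay below it, at a mean of 6.36 in activin B and 6.20 in vehicle. So did PGR, at 6.43 in activin B and 6.51 in vehicle. The estrogen receptor gene ESR1, among those above the median, was close to it, at 6.84 in activin B and 6.81 in vehicle. None of the 10 was called. At an unadjusted p under 0.05 EPCAM was higher and KRT5 lower in activin B, beside 3.14% and 2.75% of all genes. The groups did not overlap for 3 of the 10 that were higher and 2 that were lower in activin B, beside 5.14% and 5.21% of all genes. Representing sets above that median numbered 2 of 8 for endothelial, 1 of 6 for leukocyte and 4 of 6 for fibroblast markers, and none of them was called either. At an unadjusted p under 0.05 there were 1 of 8 endothelial, 1 of 6 leukocyte and 2 of 6 fibroblast markers, beside 5.89% of all genes. The collagen gene COL1A1 was among the bright ones, at a mean of 11.65 in activin B and 11.44 in vehicle, and its source was not tested.

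No member was called. By limma with Benjamini-Hochberg adjustment over all 54613 probe sets, 0 of the 56 representing sets had an adjusted p under 0.05, beside 0.192% of all genes, and the smallest adjusted p was 0.462. At an unadjusted p under 0.05 the count was 1 of 56, or 1.79%, beside 5.89% of all genes (3.14% higher and 2.75% lower in activin B). The arrays of the 2 groups did not overlap for 5 members, or 8.93%, beside 10.3% of all genes. Of these, 4 members were lower in activin B and 1 was higher, beside 5.21% and 5.14% of all genes. The median log2 change was -0.01 over the members and -0.00 over all genes, and 62.5% of members lay below 0, beside 50.9% of all genes. The median size of a change, regardless of sign, was 0.04 for members and 0.05 for all genes.

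The intervals bound what 3 arrays per group could miss. Standard errors of the 56 log2 changes ran from 0.06 to 0.09. The 95% intervals of all 56 lay within 0.5 of 0 on the log2 scale, and those of 46 lay within 0.25. The lowest limit was -0.37, for RBL1, and the highest was 0.25, for PLK1. These intervals are those of single genes and are not adjusted for their number. All 56 representing sets were brighter than the median probe set, with mean signals from 7.22 for E2F2 to 12.47 for PTTG1. A representing set is the brightest of its gene, and those of 12644 of all 19775 genes lay above that median. Of the 129 member sets, 22 did not. In these bulk samples a lower signal from fewer cells in a phase and one from less RNA per cell cannot be told apart.

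**Figure D2:**
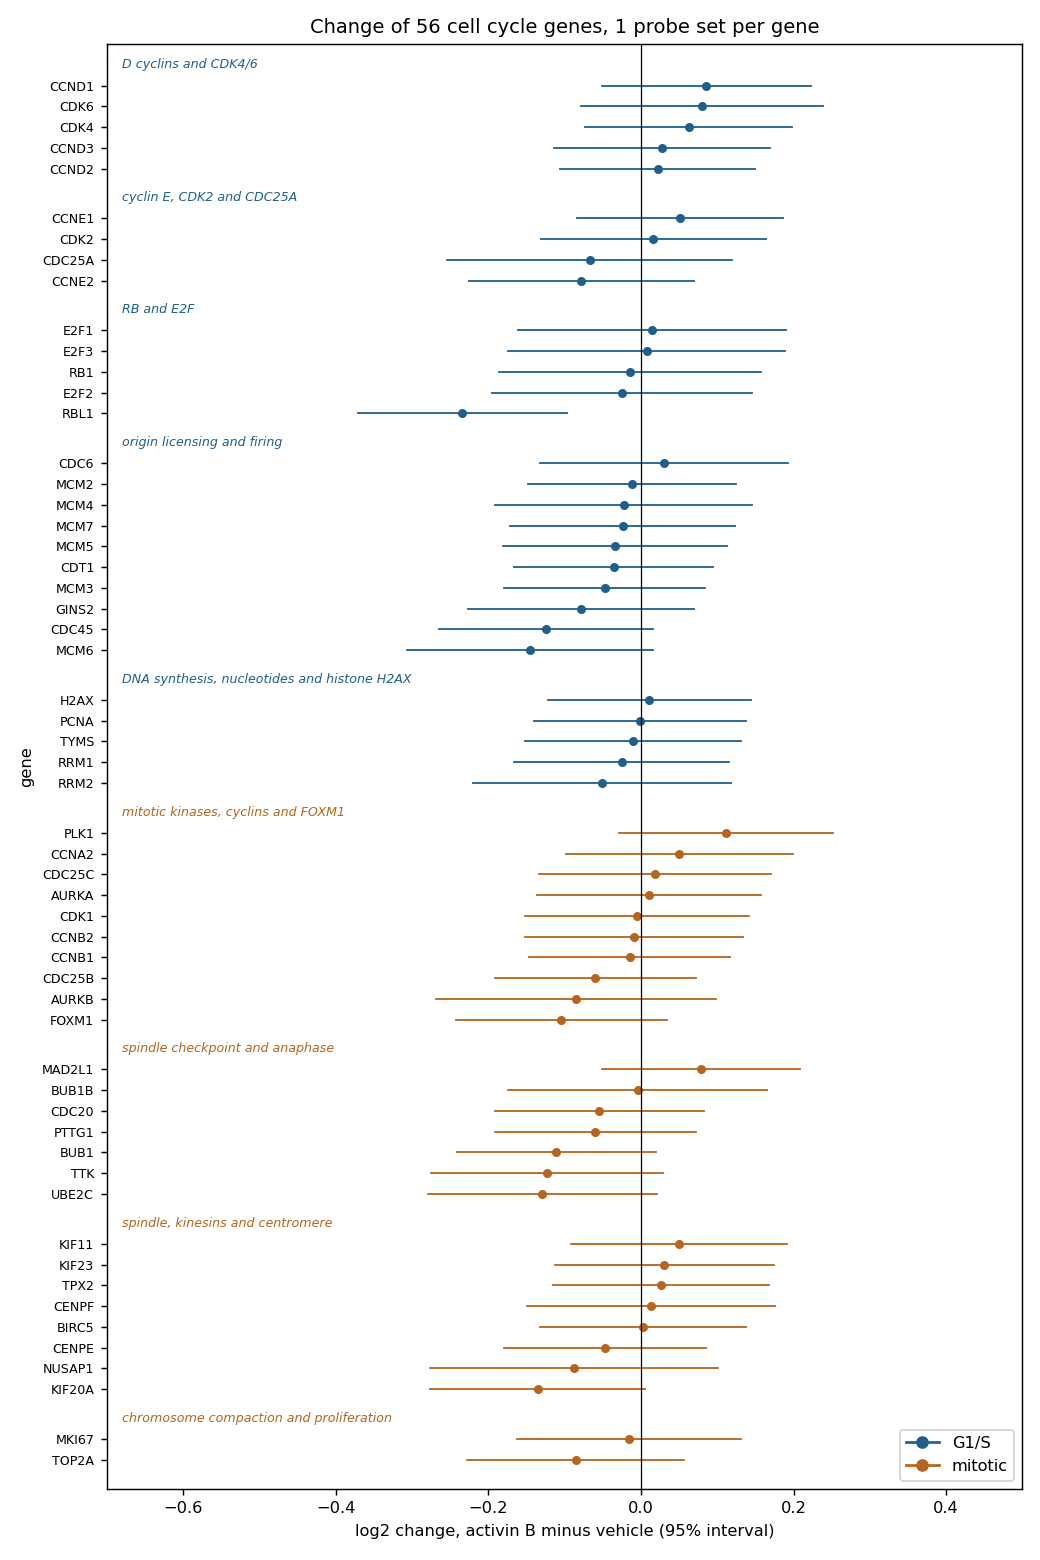
Log2 change of each of the 56 genes, activin B minus vehicle, with points for estimates from the representing probe set and bars for 95% intervals, n = 3 arrays per group. Values run from -0.23 for RBL1 to 0.11 for PLK1, and the interval of RBL1 is the only one that leaves out 0.

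With all arrays, the G1/S and mitotic members had nearly the same median. Their median log2 changes were -0.01 each and differed by 0.0005, with 18 of 29 G1/S members and 17 of 27 mitotic members below 0. With single arrays left out this difference ran from 0.0033 to 0.0254, above the value with all arrays each time. The G1/S members ranged from -0.23 for RBL1 to 0.09 for CCND1, and the mitotic members from -0.14 for KIF20A to 0.11 for PLK1. Measured from each gene's mean over the vehicle arrays, the median G1/S member stood at -0.04, -0.01 and 0.02 in the activin B arrays and at -0.01, 0.01 and -0.01 in the vehicle arrays. The median mitotic member stood at -0.05, -0.02 and -0.01 in activin B and at 0.01, 0.01 and -0.02 in vehicle. The groups overlapped in both, and the lowest median belonged to activin B replicate 1. Activin B replicate 3, the array that stood apart, was the highest of its group for 28 members and the lowest for 17.

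**Figure D3:**
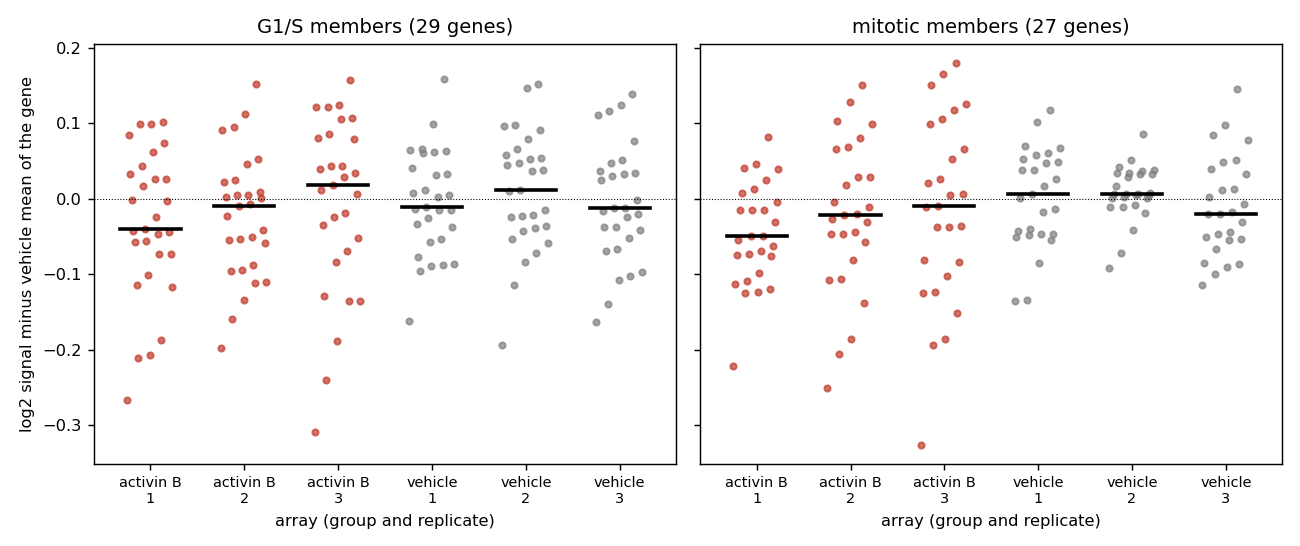
Log2 signal of every G1/S and mitotic member minus that gene's mean over the vehicle arrays, by array, with activin B replicates left of vehicle replicates, points for genes and bars for medians. Array medians lay between -0.05 and 0.02 in both panels.

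The D-type cyclins and their kinases receive growth signals at the start of G1. All 5 had estimates above 0, from 0.02 for CCND2 to 0.09 for CCND1, and none passed the test. CCND1, the cyclin D1 gene, gave 10.14, 10.10 and 10.15 in activin B and 9.96, 10.10 and 10.08 in vehicle (log2 change 0.09 ± 0.06, SE, adjusted p = 0.995). CDK6 gave 9.09, 9.09 and 9.03 in activin B and 8.83, 9.04 and 9.11 in vehicle. CDK4, the other kinase that acts with cyclin D, gave 11.46, 11.37 and 11.50 in activin B and 11.37, 11.36 and 11.42 in vehicle. The groups overlapped in each, and the low value of vehicle replicate 1 stood out for CCND1 and CDK6.

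Cyclin E activates CDK2, and the phosphatase CDC25A removes its inhibitory phosphates. CCNE2 gave 7.70, 7.80 and 7.66 in activin B and 7.84, 7.86 and 7.69 in vehicle (log2 change -0.08 ± 0.07, SE). CCNE1, the other cyclin E gene, gave 7.98, 7.96 and 8.08 in activin B and 7.99, 7.93 and 7.94 in vehicle (0.05 ± 0.06, SE). CDC25A gave 8.13, 8.23 and 8.46 in activin B and 8.32, 8.23 and 8.48 in vehicle, a wider scatter within than between the groups. CDK2 itself had a log2 change of 0.02 ± 0.07 (SE).

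Among the retinoblastoma and E2F genes, RBL1 was the member at an unadjusted p under 0.05. Its signals were 7.47, 7.54 and 7.50 in activin B and 7.72, 7.82 and 7.67 in vehicle. Every activin B array thus lay below every vehicle array, by a log2 change of -0.23 ± 0.06 (SE, 95% interval -0.37 to -0.10, limma unadjusted p = 0.00241, adjusted p = 0.462). The other 3 probe sets of RBL1 were dimmer, near or below the median probe set of 6.69. They averaged 6.29, 6.87 and 6.62 in activin B and 6.28, 6.89 and 6.62 in vehicle. Their log2 changes were 0.01, -0.02 and -0.00, and the mean of all 4 sets gave -0.06. Within arrays, the representing set minus each of the other sets gave log2 differences of -0.24, -0.21 and -0.23 between the groups (exact two-sided permutation test over 20 labelings, p = 0.2, 0.1 and 0.1, where 0.1 is the smallest possible). The representing set was contrasted because of its own change, so these values describe it and add no independent support.

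RB1, the tumor suppressor that restrains E2F, had 2 probe sets that read differently. The brighter, representing set gave 9.61, 9.69 and 9.39 in activin B and 9.64, 9.62 and 9.48 in vehicle (log2 change -0.01 ± 0.08, SE). The dimmer set, 211540_s_at, gave 6.74, 6.81 and 6.96 in activin B and 7.16, 7.07 and 7.09 in vehicle (log2 change -0.27 ± 0.07, SE, limma unadjusted p = 0.0015, adjusted p = 0.359). Its groups did not overlap, but the difference between the sets did within arrays (exact two-sided permutation test, p = 0.3). This set too was contrasted because of its own change. E2F1, an activator of S phase genes, gave 7.66, 7.57 and 7.54 in activin B and 7.73, 7.38 and 7.61 in vehicle. E2F2, a second activator, gave 7.23, 7.07 and 7.32 in activin B and 7.16, 7.38 and 7.16 in vehicle. E2F3, the remaining activator, had a log2 change of 0.01 ± 0.09 (SE).

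Origin licensing loads the MCM helicase onto DNA through CDC6 and CDT1, and CDC45 and GINS then activate it. Of 10 members, 9 had estimates below 0, with a median log2 change of -0.03, and none passed. MCM6, a helicase subunit, gave 9.23, 9.18 and 8.96 in activin B and 9.33, 9.25 and 9.22 in vehicle (log2 change -0.15 ± 0.08, SE, adjusted p = 0.959). CDC45 gave 8.46, 8.51 and 8.59 in activin B and 8.61, 8.60 and 8.72 in vehicle (log2 change -0.12 ± 0.07, SE, adjusted p = 0.961). The groups of CDC45 did not overlap, although the nearest arrays stood at 8.59 in activin B and 8.60 in vehicle, whereas those of MCM6 did, at activin B replicate 1. GINS2 gave 8.60, 8.58 and 8.51 in activin B and 8.59, 8.57 and 8.77 in vehicle, where vehicle replicate 3 alone stood high. CDC6 was the licensing gene above 0, at 0.03 ± 0.08 (SE).

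The genes of DNA synthesis were bright and close to even. RRM2, the regulated subunit of ribonucleotide reductase, gave 11.20, 11.35 and 11.51 in activin B and 11.32, 11.46 and 11.44 in vehicle (log2 change -0.05 ± 0.08, SE). RRM1, the large subunit of the same enzyme, gave 11.35, 11.47 and 11.49 in activin B and 11.52, 11.42 and 11.44 in vehicle. The polymerase clamp gene PCNA had a log2 change of -0.00 ± 0.07 (SE) and TYMS, the thymidylate synthase gene, one of -0.01 ± 0.07 (SE). Replicate spread exceeded each of these differences.

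H2AX, a histone variant that marks DNA breaks when phosphorylated, was read by 4 probe sets. The representing set, 205436_s_at, gave 11.58, 11.51 and 11.55 in activin B and 11.60, 11.51 and 11.50 in vehicle (log2 change 0.01 ± 0.06, SE). Set 213344_s_at gave 9.14, 9.33 and 9.21 in activin B and 8.90, 8.65 and 8.56 in vehicle, so that all activin B arrays lay above all vehicle arrays. It was called higher, by 0.52 ± 0.08 on the log2 scale or 1.44-fold (SE, 95% interval 0.34 to 0.70, limma adjusted p = 0.0232). Set 212525_s_at gave 8.76, 8.83 and 8.91 in activin B and 8.98, 8.88 and 8.83 in vehicle (log2 change -0.06 ± 0.07, SE). The dimmest, 212524_x_at, gave 6.57, 6.53 and 6.66 in activin B and 6.62, 6.50 and 6.37 in vehicle (0.09 ± 0.07, SE). One set of 4 thus differed between the groups, and it was not the brightest.

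CDK1, the kinase that drives mitosis with cyclins A and B, showed the same split. The representing set, 203213_at, gave 11.53, 11.75 and 11.66 in activin B and 11.61, 11.68 and 11.66 in vehicle (log2 change -0.01 ± 0.07, SE). Set 231534_at gave 8.08, 8.42 and 8.27 in activin B and 7.45, 7.74 and 7.87 in vehicle, with no overlap. It was called higher, by 0.57 ± 0.10 on the log2 scale or 1.49-fold (SE, 95% interval 0.35 to 0.79, limma adjusted p = 0.0452). Set 210559_s_at gave 10.85, 10.92 and 10.91 in activin B and 10.78, 10.93 and 10.92 in vehicle (log2 change 0.01 ± 0.07, SE). Set 203214_x_at gave 10.44, 10.53 and 10.47 in activin B and 10.49, 10.55 and 10.51 in vehicle (-0.04 ± 0.06, SE). The 3 bright sets were even between the groups, and the dim one alone was not.

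Within arrays, 231534_at minus another CDK1 set differed between activin B and vehicle by 0.56, 0.58 and 0.61 in log2 signal, and 213344_s_at minus another H2AX set by 0.43, 0.51 and 0.59. In each of these 6 contrasts the activin B arrays all lay above the vehicle arrays (exact permutation test, p = 0.1, the lowest value possible with 3 arrays a group). The sets were picked for their own change, so these values describe them and add no independent support. Both calls were sensitive to the arrays kept. That of 231534_at ended without activin B replicate 2 or 3 or vehicle replicate 1 or 2 (limma adjusted p = 0.291, 0.126, 0.182 and 0.207), and when only probe sets above the median signal were tested (adjusted p = 0.0772). That of 213344_s_at ended without activin B replicate 2 or 3 or vehicle replicate 2 or 3 (adjusted p = 0.179, 0.0547, 0.202 and 0.154). Which stretch of each transcript these sets read was not analysed here. The suffix _s_at marks probes shared by several transcripts and _x_at marks probes that can also bind other sequences.

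**Figure D4:**
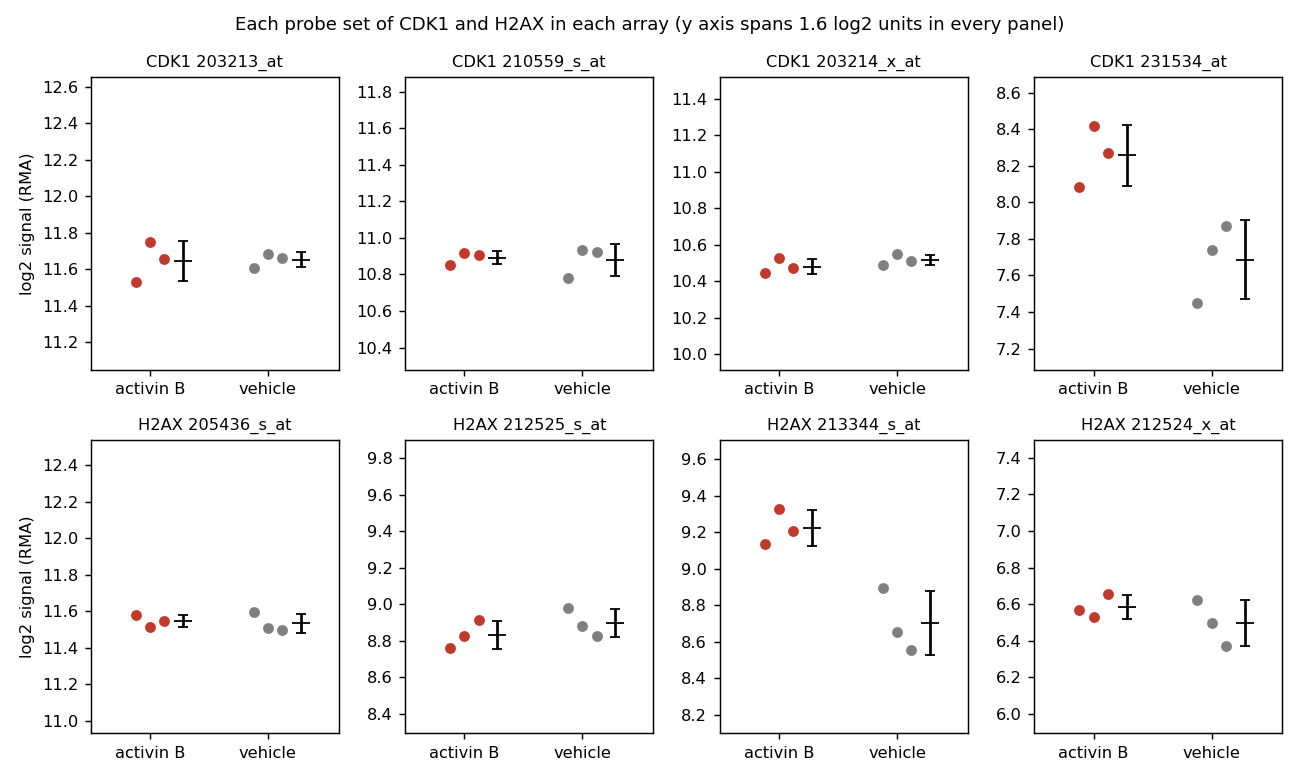
Log2 signal of each CDK1 and H2AX probe set in each array, activin B left and vehicle right, with points for arrays and bars for group means, every panel spanning the same log2 distance. CDK1 231534_at and H2AX 213344_s_at are the panels where the groups are apart.

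Called sets numbered 2 of the 129 member sets, or 1.55%, beside 0.121% of all probe sets, and both were higher in activin B, beside 0.0732%. The members, CDK1 and H2AX among them, were chosen with earlier results of these data known. The share of called sets is therefore a description and carries no test. At an unadjusted p under 0.05 there were 5 member sets, or 3.88%, beside 5.28% of all probe sets. These were the called sets, the sets of RBL1 and RB1 above, and a set of BIRC5. BIRC5 encodes survivin, a subunit of the chromosomal passenger complex. Its set 1555826_at gave 8.03, 8.29 and 8.24 in activin B and 7.82, 8.08 and 8.09 in vehicle (log2 change 0.19 ± 0.09, SE, adjusted p = 0.934), and its representing set had a log2 change of 0.00 ± 0.06 (SE). Over the 39 members with several sets, the median range of log2 changes within a gene was 0.09. The range exceeded 0.25 in 4 of them, CDK1 (0.61), H2AX (0.59), BIRC5 (0.27) and RB1 (0.26).

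Other kinases, cyclins and FOXM1 of mitotic entry did not pass. PLK1 had the highest estimate of all 56, with 8.06, 8.17 and 8.22 in activin B and 7.99, 8.04 and 8.09 in vehicle (log2 change 0.11 ± 0.07, SE, adjusted p = 0.986). FOXM1 gave 9.50, 9.52 and 9.38 in activin B and 9.52, 9.60 and 9.58 in vehicle (log2 change -0.10 ± 0.07, SE, adjusted p = 0.989), from a set of the _x_at kind. AURKB, the kinase of the chromosomal passenger complex, gave 8.41, 8.28 and 8.65 in activin B and 8.54, 8.44 and 8.62 in vehicle. The groups overlapped in all 3 genes. The mitotic cyclins CCNB1 and CCNB2 each had a log2 change of -0.01 and CCNA2 one of 0.05 (SE 0.06 to 0.07).

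The spindle checkpoint holds anaphase until chromosomes are attached, and the anaphase-promoting complex then ends mitosis. Of 7 members, 6 had estimates below 0, with a median log2 change of -0.06. UBE2C, the ubiquitin-conjugating enzyme of that complex, gave 11.68, 11.51 and 11.51 in activin B and 11.76, 11.73 and 11.61 in vehicle (log2 change -0.13 ± 0.07, SE, adjusted p = 0.976). BUB1, a checkpoint kinase, gave 8.65, 8.67 and 8.68 in activin B and 8.73, 8.77 and 8.83 in vehicle, with no overlap (log2 change -0.11 ± 0.06, SE, adjusted p = 0.977). The other BUB1 sets, all dimmer, had log2 changes of -0.0025, -0.015, -0.038 and 0.0745, and their groups overlapped. TTK, the kinase that starts checkpoint signaling, gave 9.34, 9.54 and 9.44 in activin B and 9.56, 9.65 and 9.47 in vehicle (-0.12 ± 0.07, SE).

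MAD2L1, the checkpoint protein that binds CDC20, lay on the other side of 0. It gave 10.68, 10.71 and 10.77 in activin B and 10.66, 10.63 and 10.64 in vehicle, with no overlap (log2 change 0.08 ± 0.06, SE, adjusted p = 0.995). Its other sets, 1554768_a_at and 236312_at, had log2 changes of -0.01 and 0.07, and their groups overlapped. CDC20 itself, the activator of the complex, had a log2 change of -0.05 ± 0.06 (SE). PTTG1, the securin gene, had one of -0.06 ± 0.06 (SE), from a set of the _x_at kind.

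Motors and spindle proteins split around 0, with 3 of 8 below it and a median log2 change of 0.01. KIF20A, a kinesin of cytokinesis, gave 10.23, 10.07 and 10.13 in activin B and 10.34, 10.24 and 10.26 in vehicle, just without overlap (log2 change -0.14 ± 0.07, SE, adjusted p = 0.959). NUSAP1, a microtubule-binding spindle protein, gave 11.12, 11.02 and 10.71 in activin B and 11.09, 11.04 and 10.98 in vehicle. Its lowest value came from activin B replicate 3. CENPE, a kinetochore motor, gave 9.28, 9.33 and 9.32 in activin B and 9.30, 9.41 and 9.36 in vehicle (-0.05 ± 0.06, SE). TOP2A, the topoisomerase that untangles chromosomes, gave 11.47, 11.47 and 11.54 in activin B and 11.68, 11.51 and 11.55 in vehicle (-0.09 ± 0.07, SE, adjusted p = 0.995). The proliferation marker MKI67 gave 9.47, 9.51 and 9.53 in activin B and 9.64, 9.50 and 9.42 in vehicle (-0.02 ± 0.07, SE).

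**Figure D5:**
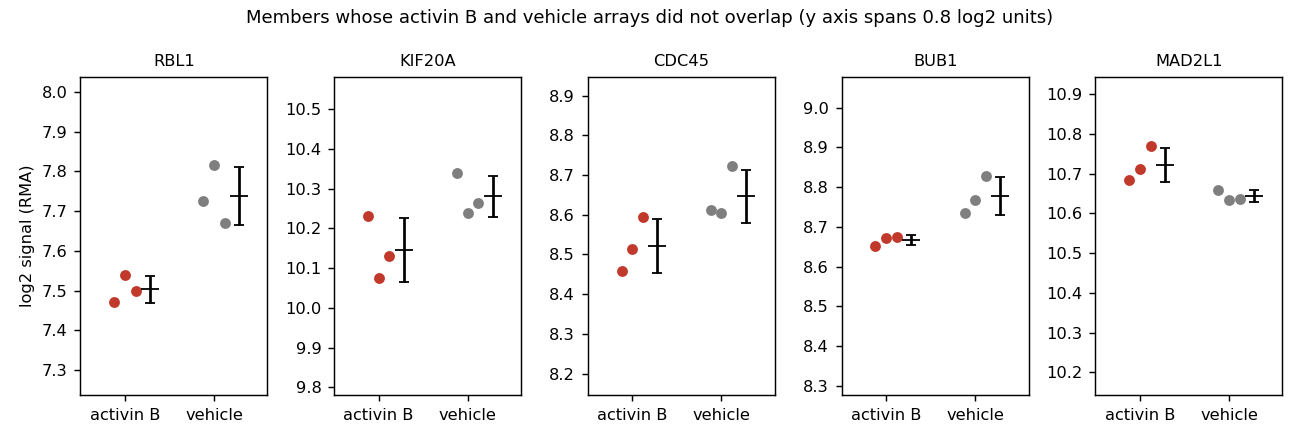
Log2 signal by array, activin B left and vehicle right, for the 5 members whose groups did not overlap, with points for arrays and bars for group means. RBL1, KIF20A, CDC45 and BUB1 were lower in activin B and MAD2L1 higher, and none had an adjusted p under 0.05.

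Genes around the members were counted from further lists, with 96 of 98 measured, and none was called. Of 7 cyclin-dependent kinase inhibitors and cytostatic targets, CDKN1A, the p21 gene, gave 10.69, 10.56 and 10.69 in activin B and 10.36, 10.35 and 10.55 in vehicle (log2 change 0.23 ± 0.07, SE, adjusted p = 0.668). CDKN1C, the p57 gene, gave 7.33, 7.25 and 7.20 in activin B and 7.45, 7.40 and 7.45 in vehicle (-0.17 ± 0.06, SE, adjusted p = 0.826). They lay on opposite sides of 0, and they were the 2 of these 7 genes at an unadjusted p under 0.05, beside 5.89% of all genes, and the 2 without overlap, beside 10.3%. FBXO5, the gene of the anaphase-promoting complex inhibitor EMI1, gave 8.46, 8.42 and 8.46 in activin B and 8.63, 8.60 and 8.62 in vehicle (-0.17 ± 0.06, SE, adjusted p = 0.777). It was the 1 gene at an unadjusted p under 0.05 in a list of 14 DREAM and quiescence genes, beside 5.89% of all genes. In that list the groups did not overlap for FBXO5 and LIN54, both lower in activin B, beside 5.21% of all genes. The median log2 change of the list was -0.02, and TFDP2, a partner of E2F, had 0.12 ± 0.07 (SE).

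Among 35 other DNA replication genes, 28 had estimates below 0, beside 50.9% of all genes, with a median log2 change of -0.03. None had an unadjusted p under 0.05. The groups did not overlap for 2 of the 35, beside 10.3% of all genes. Both were lower in activin B, beside 5.21% of all genes. ORC6, a subunit of the origin recognition complex, had a log2 change of -0.18 ± 0.09 and RFC2, a subunit of the clamp loader, one of -0.13 ± 0.06 (SE, adjusted p = 0.959 for both). Among 40 other mitotic genes, 32 lay below 0, with a median of -0.04, and 4 had an unadjusted p under 0.05, beside 5.89% of all genes. The groups did not overlap for 5 of the 40, with 1 higher and 4 lower in activin B, beside 10.3% of all genes. CDCA3, a trigger of mitotic entry, was among the 4 at an unadjusted p under 0.05, with 10.47, 10.51 and 10.47 in activin B and 10.43, 10.27 and 10.25 in vehicle (log2 change 0.17, adjusted p = 0.883). The other 3, GTSE1, HMMR and CDCA8, had estimates below 0. Genes of one program share regulation and arrays, so these counts carry no test.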

How the data were processed

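Gene expression was read on Affymetrix Human Genome U133 Plus 2.0 arrays from 50 ng of total RNA, 3 arrays per group, grouped by title. Per the methods, the authors applied robust multiarray averaging to the raw scans in Chipster, and they deposited log2 signals. This method equalizes array distributions, which removes a change shared by most transcripts, and compresses differences near background. Scanner files were not used here, so background correction and scan date were not varied. Of 54613 probe sets left after 62 array controls, 41091 carried 1 gene symbol of the platform annotation, 1801 several and 11721 none here, and genes were named from the first class alone, with symbols checked against RefSeq of GRCh38.p14.

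Groups were compared with limma 3.58.1 in R 4.3.3 (residual degrees of freedom 4, prior 10.8), as the two-group empirical Bayes test of the study, with Benjamini-Hochberg adjustment over all probe sets and calls at an adjusted p under 0.05. Errors are standard errors of this model unless stated, and 3 arrays per group limit the precision. The steps were tested on simulated data with independent noise, where recovery was required only of changes larger than any member set showed. Values in each array are given for all sets of CDK1 and H2AX, up to 3 members with the smallest p in each of 9 role groups, and up to 2 genes per further list. Other genes and sets given singly, among them the dimmer sets of RB1, RBL1 and BIRC5, were named after their values were seen. Members and lists were chosen with earlier results of these data known. Tried instead were a replicate block, filters on dim sets, other scalings and priors, array weights, omission of each array, and other ways to represent a gene. Figures were drawn with matplotlib 3.10.9.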

Additional observations from a re-analysis of the deposited data

How the results depend on the processing

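No member was called by its representing set under any alternative run, and no called value reversed. Counts of called member sets, 2 in all, became 1 when the tested sets were limited to those brighter than the median set, or to a mean signal of at least 7, and ran from 0 to 2 when single arrays were left out. The call of CDK1 231534_at (log2 change 0.5713) was lost with those filters at the same log2 change (adjusted p = 0.0772 and 0.0827), and its value ran from 0.4527 to 0.6635 over arrays left out. That of H2AX 213344_s_at ran from 0.4492 to 0.6191 over them. Members at an unadjusted p under 0.05 and lower numbered 1, but 3 with a replicate block, 3 with a trend in the prior, 2 with array weights, 3 with the mean of all probe sets of a gene, and 1 to 4 over arrays left out. Higher ones numbered 0, but 2 with that mean. Shares of all genes or probe sets were not counted under these other runs. Shifts in the counts are therefore not read as a result about the members. With the mean of all probe sets of a gene the log2 change was -0.06 for RBL1, -0.02 for BUB1 and 0.14 for H2AX. Over arrays left out, the median of the mitotic members ran from -0.038, without vehicle replicate 3, to -0.0123, and the G1/S median minus the mitotic one, 0.0005 with all arrays, ran from 0.0033 to 0.0254, without activin B replicate 1. That difference was 0.0165 with array weights and 0.016 with the mean of all probe sets. The cause of these shifts was not tested.

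Replicate numbers were not shown to pair the samples. Deviations of same-numbered arrays correlated at 0.256, 0.073 and 0.282 and those of other pairs between -0.257 and 0.011, so each array correlated best with its own number, which is a hint from the data and not the design. With the replicate block, adjusted p was 0.00167 for CDK1 231534_at and 0.0145 for H2AX 213344_s_at, and 2 member sets were called. Scaling moved the median of all probe sets by under 0.1 on the log2 scale, between -0.0012 and 0.0028.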
